A study of Mus musculus with 6 samples.

Results

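The 10 genes of de novo lipogenesis described here, *Fasn*, *Acaca*, *Acacb*, *Acly*, *Me1*, *Thrsp*, *Srebf1*, *Mlxipl*, *Scd1* and *Elovl6*, were chosen by name from the 49315 genes counted in liver F4/80-positive cells. All 10 were found under their Ensembl identifiers, and 10 of 10 passed the filter on low counts that left 16134 genes to test. F4/80 is a surface protein of macrophages, and the cells were taken with anti-F4/80 beads from collagenase-digested liver, which enriches for Kupffer cells, the macrophages that reside in the sinusoids. The 3 *Lpcat3* KOMac mice carried floxed *Lpcat3* alleles and 1 copy of LysM Cre, which drives recombination in myeloid cells. The 3 WT mice were littermates that carried the floxed alleles too, but no Cre. *Lpcat3* encodes an acyltransferase that puts polyunsaturated fatty acids into phospholipids. All 6 mice, on a C57BL/6N background, received a high-fat diet (HFD) with 60% fat for 16 weeks, started at an age of 8 to 12 weeks. Each mouse gave 1 library of poly(A)-selected RNA.

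De novo lipogenesis turns surplus carbohydrate into fatty acids. Citrate exported from mitochondria is split to acetyl-CoA, acetyl-CoA is carboxylated to malonyl-CoA, and fatty acid synthase builds palmitate from both with NADPH as reductant. Palmitate is then elongated and desaturated. In the liver these steps belong mainly to hepatocytes, where insulin acts through the transcription factor SREBP1c and glucose through ChREBP. Macrophages express part of the same genes, under the control of liver X receptors and SREBP1.

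The libraries held between 44954224 and 71392812 counts, and each member had at least 100 counts in every library. Levels are given as counts per 1000000 counts of the library (CPM) after TMM scaling, a correction for differences in RNA composition. Transcripts of hepatocytes differed widely between the libraries. *Alb*, which encodes serum albumin and marks hepatocytes, stood at 13054 CPM in WT mouse 1, at 1205 CPM in mouse 2 and at 1319 CPM in mouse 3. In *Lpcat3* KOMac mice 1 to 3 *Alb* stood at 3131, 9289 and 3138 CPM. WT mouse 1 and *Lpcat3* KOMac mouse 2 were thus far above the other 4 libraries, and both groups held libraries of high and of low *Alb*. The sum over 8 hepatocyte markers ranged from 2185 to 22028 CPM in WT mice and from 5108 to 14469 CPM in *Lpcat3* KOMac mice. That over 8 Kupffer cell markers ranged from 32007 to 44274 CPM and from 25355 to 34573 CPM, and *Adgre1*, which encodes F4/80, was at 1985 CPM or more in every library. Single markers varied more than the sum, which rests mostly on *Clec4f* and *Cd5l*: in *Lpcat3* KOMac mouse 2 *Marco* was at 149 CPM, against 999 to 3168 CPM elsewhere, and *Timd4* at 123 CPM, against 344 to 938 CPM. Adipocytes also make fat de novo. Of their 4 markers, *Adipoq*, *Plin1* and *Lep* stayed at or under 0.0517 CPM in every library, and *Cfd*, the fourth, reached 4.82 CPM in WT mouse 1 and at most 0.844 CPM elsewhere. In these bulk samples, fewer cells of a type and less RNA per cell cannot be told apart. *Lpcat3* itself stood at 85.0, 66.2 and 61.2 CPM in WT mice and at 19.6, 33.3 and 19.4 CPM in *Lpcat3* KOMac mice, a log2 fold change of -1.56 (SE 0.264). The lower level followed the labels, with an adjusted p = 0.00280 by DESeq2 and 1.00 by edgeR's quasi-likelihood test, and some transcript remained in every *Lpcat3* KOMac library.

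Per length of transcript the members differed by more than 100-fold in level. On the scale of mean CPM per kilobase of exon, *Scd1* led with 238, followed by *Acly* with 64.8, *Srebf1* with 21.1 and *Thrsp* with 20.4. *Me1* with 8.97, *Fasn* with 8.12 and *Mlxipl* with 4.42 came next, and *Acaca* with 2.41, *Elovl6* with 2.32 and *Acacb* with 1.79 were lowest. Only some of this order is larger than the spread over libraries. *Scd1* ranged from 65.5 to 502 CPM per kilobase and *Acly* from 61.3 to 67.8, so that these neighbours overlapped at their edge, and *Thrsp*, with a range of 2.03 to 60.3, overlapped each of the 6 members below it and *Srebf1* above it. *Acly* and *Srebf1* did not overlap.

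**Figure D1:**
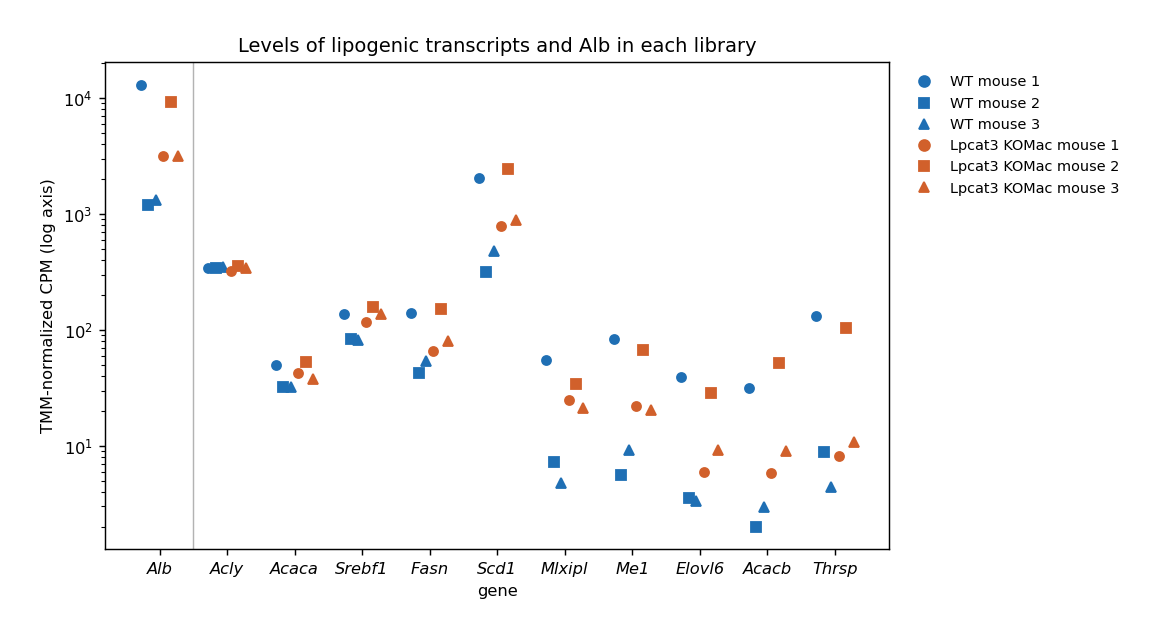
Level of each lipogenic gene and of *Alb* in the 6 libraries, in TMM-normalized CPM on a log axis, with 1 point per mouse. WT mouse 1 and *Lpcat3* KOMac mouse 2 lie above most of the others in nearly every gene except *Acly*, whose 6 points lie between 324 and 358 CPM.

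The start regions of 9 members were at hand in RefSeq (GRCm38.p6), as 13 windows from 250 bases before to 50 after a start, and *Scd1* had no entry. They were searched on both strands for TCACNCCAC (a form of the sterol regulatory element that SREBPs bind), CACGTG (an E-box, which USF and MYC-type factors recognize) and CCAAT (the NF-Y box, a frequent companion of SREBP sites). The windows below are shown because *Fasn*, the central synthase, held the most matches in a single window, *Acly* was the member whose level did not vary, and *Mlxipl* alone held the first and the second motif. Each is the 250 bases before the start, 5′ to 3′, with matches on either strand in capitals.
Fasn, chr11:120824548-120824797, minus strand: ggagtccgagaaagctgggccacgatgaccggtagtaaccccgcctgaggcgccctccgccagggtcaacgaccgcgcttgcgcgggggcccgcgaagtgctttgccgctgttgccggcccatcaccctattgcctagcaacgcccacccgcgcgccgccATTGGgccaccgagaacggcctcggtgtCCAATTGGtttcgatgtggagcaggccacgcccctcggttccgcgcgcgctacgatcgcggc
Acly, chr11:100528001-100528250, minus strand: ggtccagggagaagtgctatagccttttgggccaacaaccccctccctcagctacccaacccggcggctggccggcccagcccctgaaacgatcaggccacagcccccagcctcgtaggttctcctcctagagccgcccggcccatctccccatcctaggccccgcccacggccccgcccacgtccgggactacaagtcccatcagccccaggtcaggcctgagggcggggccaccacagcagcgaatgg
Mlxipl, upstream start, chr5:135089640-135089889, plus strand: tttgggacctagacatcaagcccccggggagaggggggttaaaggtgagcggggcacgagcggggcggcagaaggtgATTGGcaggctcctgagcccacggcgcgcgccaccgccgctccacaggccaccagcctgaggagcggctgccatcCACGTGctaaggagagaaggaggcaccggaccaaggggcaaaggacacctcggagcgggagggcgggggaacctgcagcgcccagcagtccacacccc
Mlxipl, downstream start, chr5:135106641-135106890, plus strand: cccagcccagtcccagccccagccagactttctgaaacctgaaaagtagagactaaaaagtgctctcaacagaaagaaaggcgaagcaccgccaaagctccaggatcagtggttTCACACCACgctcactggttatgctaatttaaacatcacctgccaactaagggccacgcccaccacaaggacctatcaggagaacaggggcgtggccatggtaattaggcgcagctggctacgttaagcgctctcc

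TCACNCCAC was found in 1 of the 13 windows, the downstream *Mlxipl* one, 136 bases before the start as TCACACCAC, and in 1.24% of all 32851 promoters of the table. CACGTG was found in 1 of the 13, 98 bases before the upstream *Mlxipl* start and in 7.15% of all promoters. CCAAT was found in 8 of the 13 windows, which belong to 7 genes, and in 37.4% of all promoters. *Fasn* held 3 matches to CCAAT, 90, 62 and 59 bases before its start, the last pair overlapping on opposite strands. In *Acly* the match lay after the start, outside the bases printed. *Thrsp* held CCAAT on opposite strands 79 and 52 bases before its RefSeq start. The only windows of *Acaca* and *Acacb* begin at 84195188 and 114165268, inside the genes, which begin at 84129672 and 114146535. The regions before these gene starts were not searched. A match describes the letters only, and not binding.

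The regulators came first. *Srebf1* (chromosome 11, 60199089 to 60222581, minus strand), which encodes SREBP1a and SREBP1c, the activators of fatty acid synthesis, had 137, 84.1 and 81.6 CPM in the WT mice, in their order from 1 to 3, against 116, 159 and 138 CPM in the *Lpcat3* KOMac mice. The same order holds for the genes that follow. Only WT mouse 1 overlapped the *Lpcat3* KOMac mice. The level per gene does not separate the 1a from the 1c transcript. *Srebf1* shares 109 bases with *Rai1* on the opposite strand, which had at most 1556 counts in a library against at least 3729 for *Srebf1*. *Mlxipl* (chromosome 5, 135089890 to 135138382, plus strand) encodes ChREBP, the glucose-responsive activator of lipogenic and glycolytic genes. It stood at 54.6, 7.19 and 4.75 CPM in WT mice and at 24.9, 34.1 and 21.3 CPM in *Lpcat3* KOMac mice. WT mouse 1 was the highest of all 6 libraries and the other WT mice the lowest, so the groups overlapped through 1 library. *Thrsp* (chromosome 7, 97412938 to 97417730, minus strand) encodes the thyroid hormone responsive Spot 14 protein, a nuclear and cytosolic promoter of lipogenesis. It stood at 132, 8.76 and 4.44 CPM in WT mice and at 8.25, 104 and 10.8 CPM in *Lpcat3* KOMac mice, the widest range of the members, 29.7-fold. The libraries of high *Alb*, 1 in each group, stood at least 9-fold above the other 4, which lay within 4.44 to 10.8 CPM, and the groups overlapped.

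Next were the suppliers of acetyl-CoA and NADPH. *Acly* (chromosome 11, 100476353 to 100528000, minus strand), the ATP citrate lyase that makes cytosolic acetyl-CoA, stood at 338, 342 and 346 CPM in WT mice and at 324, 358 and 344 CPM in *Lpcat3* KOMac mice. Its highest library exceeded its lowest by 1.11-fold, the narrowest range of the members, and the groups overlapped. *Me1* (chromosome 9, 86581371 to 86695953, minus strand), the cytosolic malic enzyme that yields NADPH, stood at 82.7, 5.65 and 9.25 CPM in WT mice and at 22.1, 67.3 and 20.2 CPM in *Lpcat3* KOMac mice. Its range was 14.6-fold and followed the order of *Alb* closely, with WT mouse 1 highest, *Lpcat3* KOMac mouse 2 next and WT mice 2 and 3 lowest.

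The acetyl-CoA carboxylases make malonyl-CoA. *Acaca* (chromosome 11, 84129672 to 84401651, plus strand) encodes the cytosolic ACC1 that feeds synthesis, and *Acacb* (chromosome 5, 114146535 to 114250761, plus strand) the mitochondrial ACC2, whose malonyl-CoA restrains fatty acid oxidation. *Acaca* stood at 49.3, 32.4 and 32.0 CPM in WT mice and at 42.6, 53.0 and 37.4 CPM in *Lpcat3* KOMac mice, a range of 1.66-fold. *Acacb* stood at 31.4, 2.00 and 2.95 CPM in WT mice and at 5.87, 51.8 and 9.10 CPM in *Lpcat3* KOMac mice, a range of 26.0-fold. The balance of the isoforms shifted between libraries accordingly. Per length, *Acacb* exceeded *Acaca* 1.13-fold in WT mouse 1 and 1.73-fold in *Lpcat3* KOMac mouse 2, and lay between 0.109 and 0.431 of it in the other 4 libraries.

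The last steps build, elongate and desaturate the chain. *Fasn* (chromosome 11, 120805846 to 120824547, minus strand), the fatty acid synthase, stood at 140, 42.5 and 54.3 CPM in WT mice and at 65.9, 151 and 80.0 CPM in *Lpcat3* KOMac mice. *Elovl6* (chromosome 3, 129532355 to 129638495, plus strand), which elongates palmitate to stearate, stood at 39.1, 3.55 and 3.37 CPM in WT mice and at 5.98, 28.5 and 9.16 CPM in *Lpcat3* KOMac mice. *Scd1* (chromosome 19, 44394451 to 44407709, minus strand), the stearoyl-CoA desaturase that makes oleate and palmitoleate, stood at 2024, 317 and 477 CPM in WT mice and at 784, 2429 and 881 CPM in *Lpcat3* KOMac mice. In all 3 genes WT mouse 1 and *Lpcat3* KOMac mouse 2 were the highest libraries, WT mice 2 and 3 were the lowest, and the groups overlapped. Reads shared with the near neighbours of the *Scd* family could not be assessed, since the treatment of reads with several matches was not given in the sources used here.

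**Figure D2:**
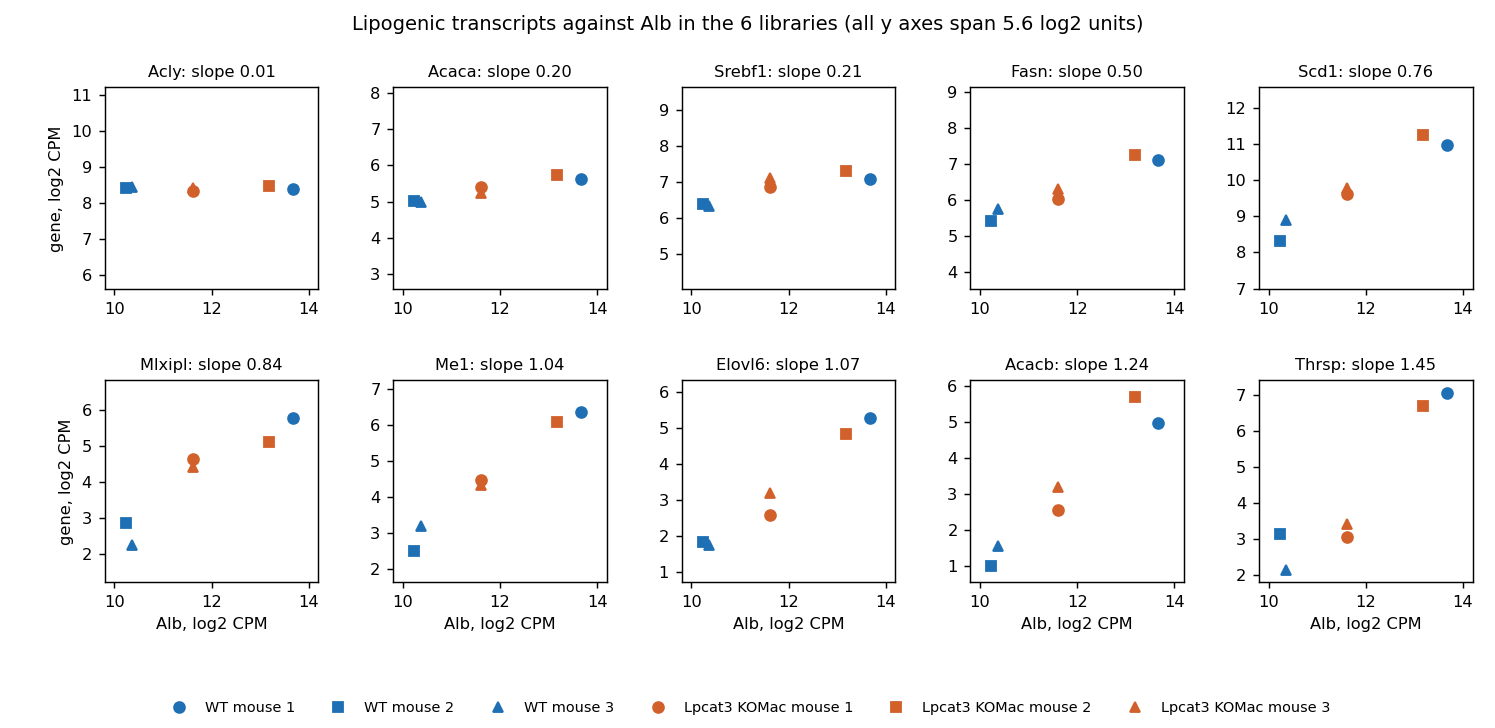
Log2 CPM of each lipogenic gene (y axis, 5.6 log2 units in every panel) against log2 CPM of *Alb* (x axis), with 1 point per mouse and the fitted slope in each title. The points climb with *Alb* in every panel except that of *Acly*, which is flat.

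To ask how far each member moved with hepatocyte transcripts, the counts of all genes were fitted in edgeR on log2 CPM of *Alb* and genotype together. A slope of 1 means that a gene rose in proportion to *Alb*, and 0 that it kept its level. Of the 10 members, 9 rose with *Alb* at an adjusted p under 0.05 and 0 fell, beside a background of 14.9% of the 16133 genes tested besides *Alb* that rose and 7.26% that fell. With scaling by total counts alone the same 9 members rose, while over all genes 2146 slopes were called above 0 and 2142 below, against 2404 and 1172 with TMM scaling. The median slope was 0.80 over the members and -0.01 over all genes. *Me1* (1.04, 95% interval 0.895 to 1.19, adjusted p = 0.000944 by edgeR's quasi-likelihood test) and *Elovl6* (1.07, 0.882 to 1.26) had intervals that held a slope of 1. So did those of *Acacb* (1.24, 0.890 to 1.58), *Mlxipl* (0.84, 0.550 to 1.14) and *Thrsp* (1.45, 0.969 to 1.94). *Thrsp* was near the top of the whole table, with a steeper slope in 6 genes only, against 47 for *Acacb*. *Scd1* (0.76, 0.576 to 0.937) and *Fasn* (0.50, 0.359 to 0.635) rose less than in proportion. *Srebf1* (0.21, 0.130 to 0.294) and *Acaca* (0.20, 0.117 to 0.274) rose least among those called, with adjusted p = 0.00903 and 0.0104 by the same edgeR test. *Acly* did not pass the test (0.01, -0.067 to 0.078), which bounds any slope below that of the other members. The 7 other hepatocyte markers tested all rose, with slopes of 0.55 to 1.099, and none of the 8 Kupffer cell markers passed the test, with slopes of -0.52 to -0.06.

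These calls needed WT mouse 1, which held the most *Alb* and the most counts. Without it all 10 slopes stayed above 0 and 7 had an unadjusted edgeR p under 0.05, but 0 of 10 passed the adjusted threshold (smallest adjusted p = 0.134 by edgeR), and neither did any gene of the whole table, of which 2328 had an unadjusted p under 0.05. *Mlxipl* then had a slope of 0.34, while *Acacb* had 1.79 and *Thrsp* 2.16. Without *Lpcat3* KOMac mouse 2 the same 9 members were called. Which part of these levels came from hepatocytes and which from macrophages was not tested.

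**Figure D3:**
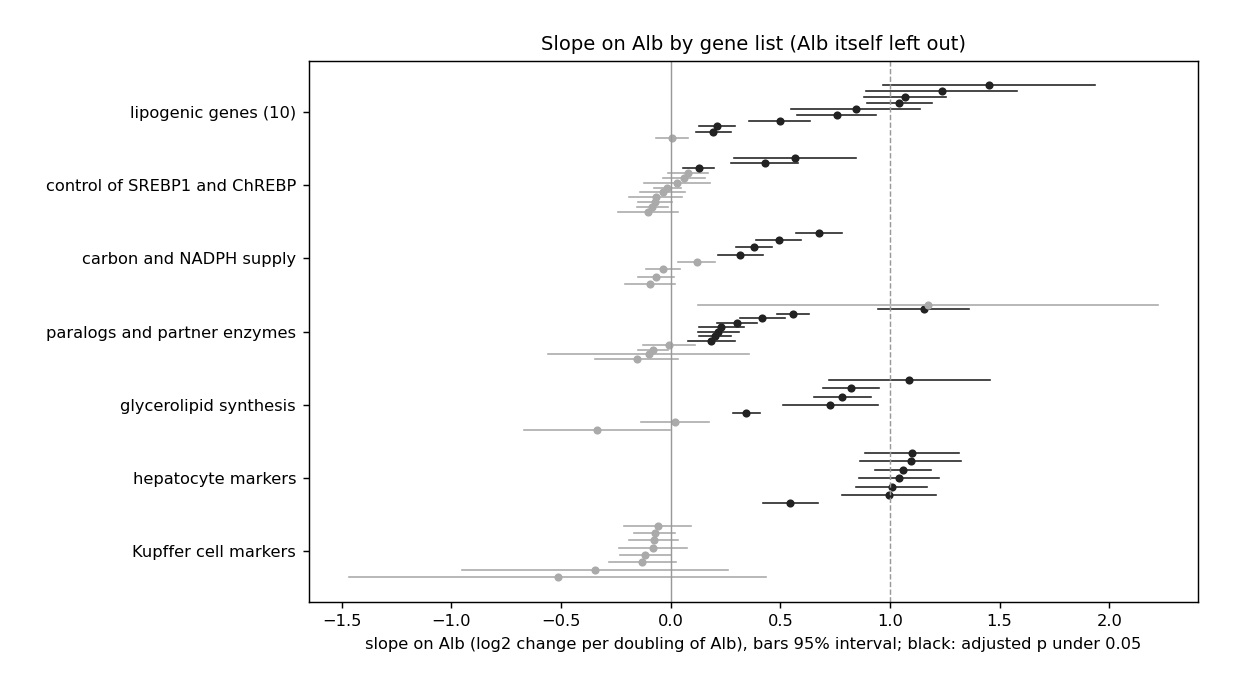
Slope on *Alb* with its 95% interval for each lipogenic gene, for 4 lists of related genes, and for hepatocyte and Kupffer cell markers, black where the adjusted p is under 0.05. The members span 0.01 (*Acly*) to 1.45 (*Thrsp*), the hepatocyte markers 0.55 to 1.099 and the Kupffer cell markers -0.52 to -0.06.

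Set against *Alb* directly, *Me1* and *Elovl6* kept the most even ratio. *Me1* had between 4.69 and 7.24 CPM for each 1000 CPM of *Alb* over the 6 libraries, a range of 1.54-fold, and *Elovl6* between 1.91 and 3.06 CPM, a range of 1.61-fold. At the other end, *Acly* ranged from 25.9 to 284 CPM for each 1000 CPM of *Alb*, a range of 10.96-fold. For *Mlxipl* the range was 2.21-fold. Its ratio was highest in *Lpcat3* KOMac mice 1 and 3, at 7.95 and 6.79 CPM, and between 3.598 and 5.97 CPM in the other 4 libraries.

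The members also moved with each other. Over the 6 libraries, the 36 pairs that leave out *Acly* had Pearson correlations of log2 CPM of 0.757 to 0.995 with a median of 0.919, and the 9 pairs with *Acly* of -0.115 to 0.362. All these values share 6 libraries and their *Alb* levels, so they are given as a description. The correlation with *Alb* itself was 0.992 for *Me1*, 0.985 for *Elovl6*, 0.879 for *Srebf1* and 0.138 for *Acly*. Among 9071 genes with a mean of at least 10 CPM, those most like *Fasn* were its fellow members *Acacb* (0.995) and *Scd1* (0.994), and *Hsd17b13* (0.991), a lipid droplet protein of hepatocytes. *Scd1* was most like *Hsd17b13* (0.999), *Irf2bpl* and *Fasn*. *Elovl6* was most like *Fads2* (0.995), the delta-6 desaturase, *Ankrd46* and *Serpina6*. *Acacb* was most like *Fasn*, *Gls2*, the liver glutaminase, and *Scd1*, and *Acaca* was most like *Tns1* (0.989), *Epas1* and *Akr1d1*. *Me1* was most like *Slc35d1* (0.999), *Sdc1* and *Gk*, the glycerol kinase, and *Thrsp* most like *H1f0* (0.999), *Prepl* and *Epb41*. *Mlxipl* was most like *Slc4a4* (0.998), *Dag1* and *Abcb11*, the bile salt export pump. Of the genes most like *Srebf1*, *Capn2* had 0.986 and *Tigar* 0.970. *Acly* was most like *Tmub1* (0.984), *Nt5c* and *Dalrd3*.

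Between the genotypes none of the 10 members differed beyond the spread between mice. In edgeR's quasi-likelihood test 0 of 10 were called, beside 0% of all 16134 genes, and 0 of 10 had an unadjusted p under 0.05, beside 2.64% of all genes. DESeq2 and limma-voom also called 0 of the 10, and neither gave any of them an unadjusted p under 0.05, DESeq2 giving no p for *Me1*, *Thrsp* and *Mlxipl*. The groups overlapped in 10 of 10 members, beside 7.49% of all genes whose groups did not overlap. The smallest p of the two-sided exact permutation test was 0.2, for *Srebf1*, where 3 mice against 3 allow no less than 0.1.

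The intervals show what these 6 mice could resolve. *Acly* averaged 342 ± 3.995 CPM in WT mice and 342 ± 17.2 CPM in *Lpcat3* KOMac mice (SD, n = 3 each), with a log2 fold change of -0.003 (95% interval -0.191 to 0.185). *Srebf1* averaged 101 ± 31.1 and 137 ± 21.3 CPM (SD, n = 3 each), with a log2 fold change of 0.45 (SE 0.24, -0.145 to 1.04). *Acaca* averaged 37.9 ± 9.87 and 44.4 ± 7.93 CPM, with 0.23 (-0.322 to 0.773). The other members left wide intervals. *Fasn* averaged 78.8 ± 53.0 and 99.0 ± 45.8 CPM, with 0.33 (-1.07 to 1.73), and *Scd1* 939 ± 943 and 1364 ± 923 CPM, with 0.54 (-1.58 to 2.66). *Thrsp* averaged 48.4 ± 72.4 and 40.9 ± 54.4 CPM, with -0.24 (-4.24 to 3.75), the widest of all. For *Me1*, *Acacb*, *Mlxipl* and *Elovl6* the log2 fold changes were 0.17, 0.87, 0.27 and -0.08, each with an SE between 0.958 and 1.36. All adjusted p were 1.00 by edgeR.

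The size of a difference between genotypes rested on which library was in the fit. Without WT mouse 1, 9 of 10 log2 fold changes were above 0, from 0.46 for *Acaca* to 3.17 for *Acacb*, and *Acly* stayed at -0.01. Then 8 of 10 members had an unadjusted edgeR p under 0.05, beside 12.3% of all genes, and the groups did not overlap in 8 of 10, beside 32.7% of all genes, but the adjusted p by edgeR lay between 0.294 and 0.977. Without *Lpcat3* KOMac mouse 2, 3 of 10 were above 0, and *Thrsp* had -2.36, *Elovl6* -1.03, *Acacb* -0.71 and *Me1* -0.63. Without both of these libraries 9 of 10 were again above 0 and 8 of 10 had an unadjusted edgeR p under 0.05, beside 11% of all genes. The largest was 1.95 for *Mlxipl*, with an adjusted p = 0.0753 by edgeR. In those 4 libraries *Alb* was 1205 and 1319 CPM in WT mice and 3131 and 3138 CPM in *Lpcat3* KOMac mice. *Alb* and genotype cannot be told apart there. Without WT mouse 1 alone, every *Lpcat3* KOMac library was also above the remaining WT libraries in *Alb*, so the fit on genotype alone does not separate them. It keeps these 4 libraries and adds *Lpcat3* KOMac mouse 2, with *Alb* at 9289 CPM.

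**Figure D4:**
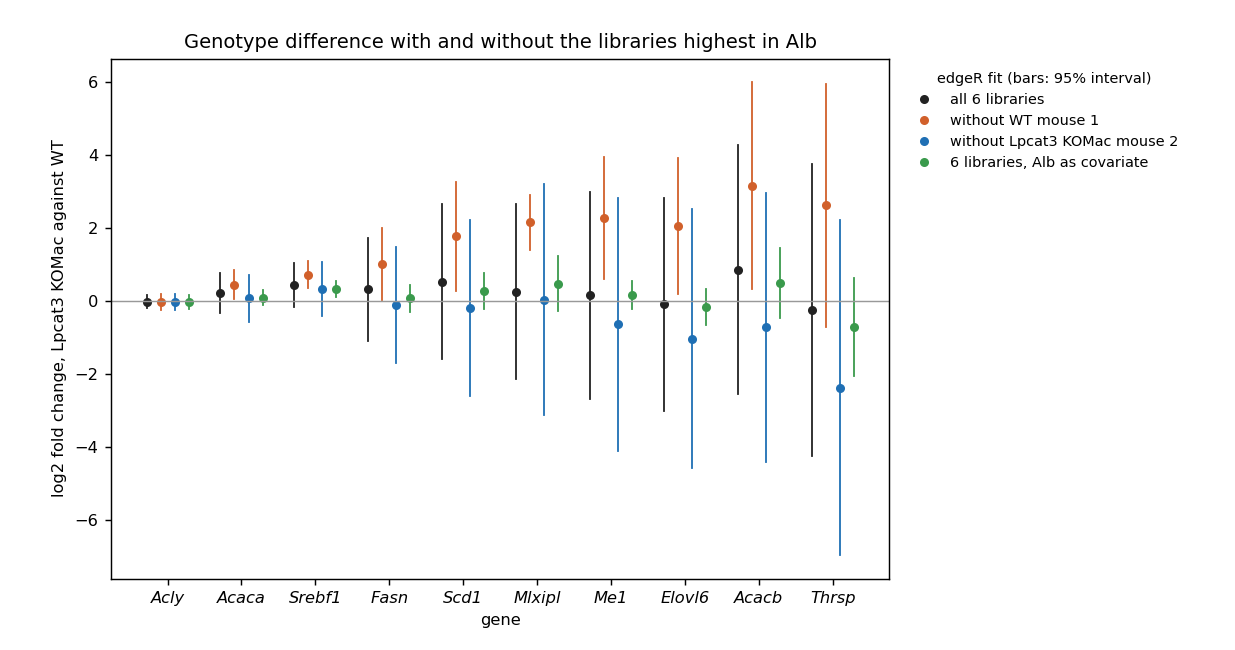
Log2 fold change of *Lpcat3* KOMac against WT for each lipogenic gene (points) with its 95% interval (bars). The fits used all 6 libraries, all but WT mouse 1, all but *Lpcat3* KOMac mouse 2, and all 6 with *Alb* as a covariate. *Thrsp* runs from -2.36 without *Lpcat3* KOMac mouse 2 to 2.63 without WT mouse 1, while *Acly* stays between -0.02 and -0.003.

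With *Alb* as a covariate and all 6 libraries kept, the intervals of the genotype terms narrowed, while the terms moved toward 0 in some members and away from it in others. *Fasn* had 0.09 (-0.287 to 0.461), *Scd1* 0.27 (-0.220 to 0.768), *Me1* 0.17 (-0.220 to 0.563) and *Thrsp* -0.70 (-2.05 to 0.647), farther from 0 than without the covariate. *Srebf1* kept 0.33 (0.113 to 0.547). It was the 1 member of 10 with an unadjusted edgeR p under 0.05, beside 9.01% of all genes, and its adjusted p was 0.496 by edgeR. With the mean of 8 hepatocyte markers as the covariate instead, 2 of 10 members had an unadjusted edgeR p under 0.05, beside 9.49% of all genes, namely *Srebf1* (0.35) and *Mlxipl* (0.55), with adjusted p of 0.455 and 0.506 by edgeR. The biological coefficient of variation over all genes was 0.391 in the fit on genotype alone and 0.199 with *Alb* added.

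Of 42 related genes in 4 lists, 40 were tested. In the genotype fit 0 of 40 were called by edgeR, 2 had an unadjusted p under 0.05, beside 2.64% of all genes, and 11 of 40 lay above 0, beside 6466 of all 16134. The groups did not overlap in 4 of 40, beside 7.49% of all genes. Of these *Scd2* and *Srebf2* were higher in *Lpcat3* KOMac mice. *Me2* (128 ± 11.8 CPM in WT and 115 ± 2.65 CPM in *Lpcat3* KOMac mice) and *Usf2* (78.8 ± 2.92 and 73.6 ± 2.28 CPM, SD, n = 3 each) were lower. None of these 4 was called by edgeR. On *Alb*, 20 of 40 rose and 0 fell, beside 14.9% and 7.26% of all genes, with a median slope of 0.16. The same shares of all genes stand beside the counts of each list below. Without WT mouse 1, 0 of 40 were called.

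Genes that control SREBP1 and ChREBP had the lowest median slope of the 4 lists, 0.01. Of 12, 3 rose, beside 14.9% of all genes. They were *Insig1* (slope 0.43) and *Insig2* (0.57), which hold SREBPs in the endoplasmic reticulum, and *Mlx* (0.13), the partner of ChREBP. The most abundant were *Rxra*, a nuclear receptor, at 629 to 904 CPM, and *Nr1h3*, which encodes liver X receptor alpha, at 525 to 821 CPM. Their slopes were 0.03 and -0.11, and neither was called.

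Among 8 genes of carbon and NADPH supply, 4 rose with *Alb*. *Idh1*, the cytosolic isocitrate dehydrogenase, ranged from 396 to 544 CPM and *Pgd*, of the pentose phosphate pathway, from 291 to 344 CPM, and neither passed the test. Per length, *Me1* reached 0.435 of the level of its mitochondrial paralog *Me2* in WT mouse 1 and 0.383 in *Lpcat3* KOMac mouse 2, and lay between 0.0254 and 0.121 in the others.

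Among 15 paralogs and partner enzymes 13 were tested and 8 rose. *Elovl5*, an elongase of polyunsaturated fatty acids, ranged from 87.8 to 340 CPM (slope 0.56), and *Hsd17b12*, a reductase of the elongation cycle, from 121 to 210 CPM (0.20). *Thrsp* exceeded its paralog *Mid1ip1* per length 3.94-fold in WT mouse 1 and 2.52-fold in *Lpcat3* KOMac mouse 2, and lay between 0.140 and 0.274 of it elsewhere. Of 7 genes of glycerolipid synthesis 5 rose, among them *Dgat2*, the acyltransferase that completes triglycerides (8.94 to 208 CPM, slope 1.09), and *Lpin2*, a phosphatidate phosphatase (114 to 272 CPM, slope 0.35).

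In the fit on genotype alone, the related genes with an unadjusted p under 0.05 between the genotypes were paralogs of members. *Scd2*, a stearoyl-CoA desaturase expressed in most tissues, stood at 82.4, 90.7 and 123 CPM in WT mice and at 185, 135 and 230 CPM in *Lpcat3* KOMac mice. *Srebf2*, which encodes the SREBP that favours cholesterol synthesis, stood at 57.7, 68.5 and 56.7 CPM in WT mice and at 78.0, 82.03 and 91.6 CPM in *Lpcat3* KOMac mice. In both genes every *Lpcat3* KOMac library was above every WT library, beside 7.49% of all genes whose groups did not overlap in either direction, with an exact permutation p of 0.1, the smallest that 3 against 3 allow and the same as for *Me2* and *Usf2*. *Scd2* had a log2 fold change of 0.89 (SE 0.244, 0.293 to 1.495) and *Srebf2* of 0.46 (SE 0.112, 0.184 to 0.737). Neither was called, with adjusted p = 1.00 for both by edgeR and 0.453 and 0.400 by DESeq2. Unlike 9 of the 10 members they were not called on *Alb*, with slopes of -0.16 (-0.345 to 0.035) and -0.04 (-0.138 to 0.066). With *Alb* as a covariate the genotype terms were 1.00 and 0.49. In that fit 7 of 40 related genes had an unadjusted edgeR p under 0.05, beside 9.01% of all genes, and 0 were called. Of the 7, *Scd2* and *Srebf2* were above 0. *Lpin1* (-0.82), *Lpin2* (-0.51), *Hacd2* (-0.42), *Aacs* (-0.37) and *Elovl5* (-0.24) were below 0, and *Lpin2* and *Lpin1* had the smallest p. Over the alternatives run, leaving out each mouse included, *Scd2* and *Srebf2* kept their sign, at 0.73 to 1.09 and 0.41 to 0.55. Neither was called, with a smallest adjusted p of 0.149 and 0.297 by edgeR, DESeq2 or limma-voom.

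Markers of other cells stood beside this difference as follows, with 0 called by edgeR at an adjusted p under 0.05. All 8 Kupffer cell markers had log2 fold changes below 0, beside 9668 of all 16134 genes. Of these markers *Clec4f* (-0.44) and *C1qa* (-0.31) had an unadjusted edgeR p under 0.05, beside 2.64% of all genes. Of 4 endothelial markers 3 lay above 0, and *Kdr* (0.79, unadjusted edgeR p under 0.05) had 62.4 to 95.7 CPM in WT and 91.5 to 169 CPM in *Lpcat3* KOMac mice. The summed endothelial markers ranged from 753 to 894 CPM and from 851 to 998 CPM. The summed neutrophil markers were low, at 1.59 to 2.10 CPM and 2.03 to 5.08 CPM, and *S100a8* had 0.99 (unadjusted edgeR p under 0.05). Of 8 hepatocyte markers 6 lay below 0, as did the 1 adipocyte marker tested. All 3 stellate cell markers, the 2 cholangiocyte markers tested and 2 of 3 lymphocyte markers lay above 0. In these lists 0 markers had an unadjusted edgeR p under 0.05. The part of these cells in the values of *Scd2*, *Srebf2* and the members was not tested.

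The proportions of the desaturase pair differed with *Alb*. Per length *Scd1* exceeded *Scd2* 27.7-fold in WT mouse 1 and 20.3-fold in *Lpcat3* KOMac mouse 2, against 3.94- to 4.79-fold in the other 4 libraries.

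**Figure D5:**
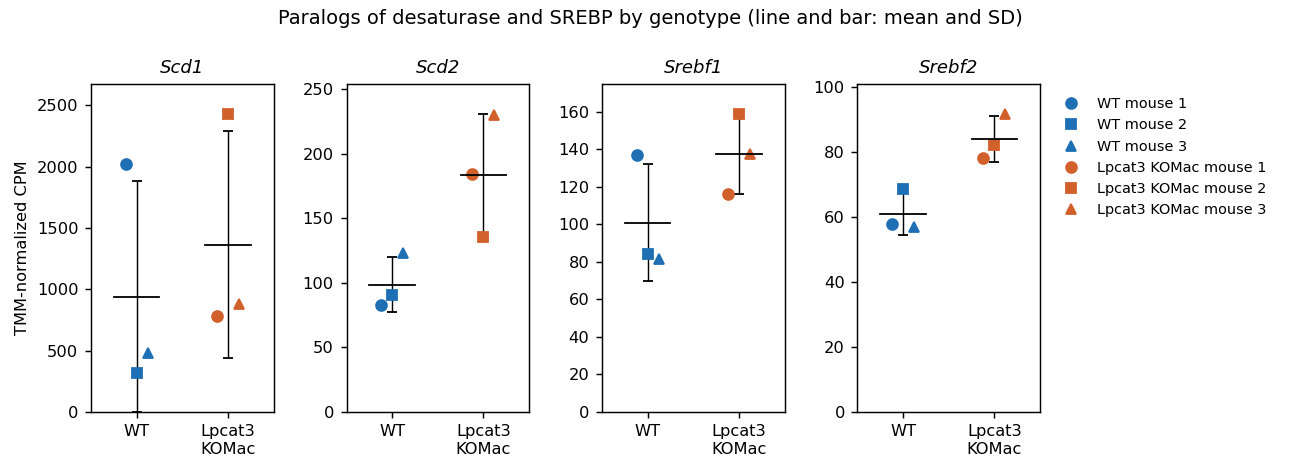
Level of *Scd1*, *Scd2*, *Srebf1* and *Srebf2* by genotype in TMM-normalized CPM, with 1 point per mouse, the mean as a line and the SD as a bar. The groups overlap in *Scd1* and *Srebf1* and stand apart in *Scd2* (at most 123 CPM in WT mice, at least 135 CPM in *Lpcat3* KOMac mice) and *Srebf2*.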

How the data were processed

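RNA of F4/80-positive liver cells from 3 WT and 3 *Lpcat3* KOMac mice was sequenced, with 1 library per mouse. The labels gave each library its genotype and number. The authors deposited read counts per gene without normalization. The submitters' processing notes name Trimmomatic 0.36, STAR 2.5.2b, featureCounts of Subread 1.5.2 and GRCm38. The strand setting, the treatment of reads with several matches and the annotation release are not given in the sources used here, so genes overlapping on opposite strands and close paralogs are uncertain. Besides *Srebf1*, this touched *Mlxipl*, *Elovl6* and *Me1*, whose antisense partners had at most 28, 89 and 6 counts. Of the 49315 identifiers, 48970 were in GENCODE M21 and 44772 had the same start and end there. The coordinates given are those of the files.

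Counts were TMM-scaled and filtered by filterByExpr (minimum count 10), and edgeR 4.0.16 (R 4.3.3) fitted its robust quasi-likelihood model on genotype alone and on genotype with log2 CPM of *Alb* (prior count 2). P-values were adjusted by Benjamini-Hochberg over all genes tested, with a threshold of 0.05. SEs were derived from log2 fold change and F. The two-sided exact permutation test used log2 of CPM plus 0.5. Levels resting on 3 counts or fewer were taken as the floor. The p-values set a difference or slope against the spread between these mice that the fit leaves. Alternatives were DESeq2 1.42.0, its size factors, total counts, limma-voom (limma 3.58.1), no filter, other covariates, a replicate block, and leaving out each mouse. Leaving out the 2 libraries highest in *Alb* together was added after seeing the data. The tests were tried on simulated data with a dispersion below that of these data, so the outcome does not give their power here. With 200 genes changed between genotypes by a log2 fold change of 2, edgeR recovered 191 with 14 false calls. DESeq2 recovered 198 with 78 false calls. Sequences are RefSeq's (GRCm38.p6).

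The members and lists were chosen with earlier results of these data known. Named are all members, in each related list the 2 genes of highest mean CPM and any with an unadjusted genotype p under 0.05, and the 3 genes most correlated with each member, 1 of which is not reported here. *Insig1*, *Insig2*, *Mlx*, *Usf2*, *Me2*, *Lpin1*, *Hacd2*, *Aacs* and the ratios to *Me2* and *Mid1ip1* were added after their values were seen. Transferrin was measured under its mouse symbol *Trf*.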

Additional observations from a re-analysis of the deposited data

How the results depend on the processing

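Between the genotypes, the 10 members stayed uncalled in every alternative run. Over all genes DESeq2 called 15 (481 at an unadjusted p under 0.05), where edgeR called 0 (426) and also 0 without any 1 mouse. Signs were less stable: of the log2 fold changes of members under alternatives, 27 turned and 123 kept their sign. *Acly* moved to 0.01 with DESeq2's size factors, 0.09 with total counts and 0.01 in DESeq2. *Thrsp* moved to 0.06 in limma-voom and 0.52 without the 2 libraries highest in *Alb*, and *Elovl6* to 0.08 with total counts, 0.37 in limma-voom and 1.13 without those libraries. Leaving out each mouse gave -0.11 to 1.03 for *Fasn*, 0.09 to 0.46 for *Acaca*, -0.71 to 3.17 for *Acacb*, -0.02 to 0.07 for *Acly*, -0.63 to 2.30 for *Me1*, -2.36 to 2.63 for *Thrsp*, 0.32 to 0.73 for *Srebf1*, -0.21 to 2.17 for *Mlxipl*, -0.18 to 1.78 for *Scd1* and -1.03 to 2.07 for *Elovl6*, and between 0 and 8 members whose groups did not overlap. The slopes on *Alb* kept their sign except that of *Acly*, -0.03 with total counts. Leaving out each mouse gave 0 to 3257 genes, 0 to 9 members and 0 to 20 related genes with a called slope, against 3576, 9 and 20 with all mice. The 0 came without WT mouse 1 (2328 genes at an unadjusted p under 0.05 by edgeR), and without *Lpcat3* KOMac mouse 2 the genes numbered 2227. With total counts 2146 of 4288 called slopes were above 0, against 2404 of 3576 with TMM scaling. The causes were not tested.

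The labels do not say whether equal replicate numbers mark paired mice. Same-numbered libraries had correlations of -0.30, -0.60 and 0.36 in their deviations from the group means. Their mean was -0.18, against 0.11 for the other pairs across genotypes. So few libraries, which also differ in *Alb*, cannot settle whether the mice were paired. With the replicate block 0 genes (3400 at an unadjusted p under 0.05 by edgeR), 0 members (9) and 0 related genes (20) had a called slope, with 1 residual degree of freedom. In the fit on replicate block and genotype without *Alb*, *Thrsp* had a log2 fold change of 0.74 and *Elovl6* of 0.82.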

Other observations

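*Elovl3*, an elongase of very long-chain saturated fatty acids among the partner enzymes, did not keep the order of *Alb*. It had 58.6, 1.72 and 2.47 CPM in WT mice 1 to 3, and 22.6, 5.19 and 6.67 CPM in the *Lpcat3* KOMac mice. In *Lpcat3* KOMac mouse 1, where *Alb* was 3131 CPM, *Elovl3* was above its level in *Lpcat3* KOMac mouse 2, where *Alb* was 9289 CPM. It was chosen after its values were seen, and the source of the difference was not tested.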
